A study of Mus musculus with 6 samples.

Results

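Liver RNA was used to describe 9 genes of thyroid hormone handling and action in mice of genotype IRE1PKO, set against mice of genotype IRE1fl. The genes were chosen by symbol, and all 9 of them, among 35976 in the count table, passed the filter on low counts: the plasma carriers Serpina7 and Ttr, the transporter Slc16a10, the deiodinase Dio1, the receptors Thra and Thrb, and the hormone-responsive genes Klf9, Hr and Gpd2. There were 3 libraries of poly(A) RNA from IRE1PKO livers and 3 from IRE1fl livers. All came from male mice on a diet given as HFD (taken to mean high-fat diet), whose livers were taken 4 hours into feeding that followed a fast of 16 hours. Ern1 encodes IRE1, an endoplasmic reticulum protein that senses unfolded proteins. The labels spell out neither PKO nor fl, name no driver of the deletion and give no age. The series title concerns communication between pituitary and liver, and a deletion outside the liver would not be checked by liver Ern1.

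The thyroid releases mostly thyroxine (T4), which travels in blood bound to thyroxine-binding globulin (Serpina7), transthyretin (Ttr) and albumin (Alb), all made by hepatocytes. In adult rodents transthyretin and albumin are the main carriers. Membrane transporters admit the hormone to the hepatocyte, where type 1 deiodinase (Dio1), a selenoenzyme, converts T4 to the active triiodothyronine (T3). T3 binds the nuclear receptors encoded by Thra and Thrb, of which Thrb is the main form in liver, and the receptors pair with retinoid X receptors on DNA to switch genes such as Dio1, Thrsp, Me1 and Gpd2.

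The promoters of Serpina7 and Gpd2 are shown because these genes were called higher in IRE1PKO livers, and that of Thrb because it alone among the starts searched held the hormone receptor's half-site. The sequences are the 250 bases before the most upstream RefSeq start of each gene on GRCm38.p6, read 5′ to 3′ on the gene's strand. Each of these genes also had a further start downstream, whose window is not shown. They lie at chrX:139085237-139085486 (minus strand) for Serpina7, chr2:57237428-57237677 (plus strand) for Gpd2 and chr14:17660710-17660959 (plus strand) for Thrb. Capitals mark AGGTCA, the half-site bound by thyroid hormone receptors, and GTTAAT, a half-site of the hepatocyte factor HNF1, on either strand; the second motif was chosen after the Serpina7 sequence had been read.
Serpina7: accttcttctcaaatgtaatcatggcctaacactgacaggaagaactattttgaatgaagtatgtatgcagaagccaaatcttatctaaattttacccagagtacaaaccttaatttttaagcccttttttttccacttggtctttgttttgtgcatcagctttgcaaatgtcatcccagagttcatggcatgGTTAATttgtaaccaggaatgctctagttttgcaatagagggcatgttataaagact
Gpd2: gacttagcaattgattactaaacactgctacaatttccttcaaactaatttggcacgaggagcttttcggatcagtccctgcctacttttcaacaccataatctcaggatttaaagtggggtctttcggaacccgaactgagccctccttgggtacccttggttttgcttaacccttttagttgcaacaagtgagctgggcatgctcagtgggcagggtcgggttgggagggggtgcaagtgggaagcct
Thrb: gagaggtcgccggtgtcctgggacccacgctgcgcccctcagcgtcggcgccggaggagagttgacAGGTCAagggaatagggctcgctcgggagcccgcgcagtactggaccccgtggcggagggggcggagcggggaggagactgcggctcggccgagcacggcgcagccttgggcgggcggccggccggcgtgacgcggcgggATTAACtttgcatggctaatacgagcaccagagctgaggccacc
The RefSeq table held 9 starts for 6 of the genes, Serpina7, Slc16a10, Dio1, Thrb, Klf9 and Gpd2. AGGTCA occurred before 1 of these 9 starts, on the plus strand of Thrb, 184 to 179 bases before the start. It occurred in 14.0% of 32851 such windows of all genes. The direct repeat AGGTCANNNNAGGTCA, made of a pair of these half-sites, was in none of the 9 windows and in 0.0152% of all. GTTAAT lay 57 to 52 bases before the first Serpina7 start. On the opposite strand it lay 44 to 39 bases before the first Thrb start, and the window of Slc16a10 also held it. Over all genes 6.43% of windows did. The Serpina7 window shown was 36.0% G and C and that of Thrb 71.6%, against a median of 52.4% over all windows. The Thrb window not shown was 44.0% G and C and held neither motif. For Gpd2 the window shown was 48.8% and the other 71.2%.

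Total counts were 36016121 to 39008647 in IRE1PKO libraries and 35776219 to 39277435 in IRE1fl libraries, of which the 9 genes took 0.561% to 0.730% in IRE1PKO and 0.491% to 0.626% in IRE1fl. Ern1 had 45.7, 36.6 and 44.2 CPM (counts relative to the TMM-scaled library total) in IRE1PKO libraries, against 61.2, 49.3 and 60.8 CPM in IRE1fl libraries. It was called lower (log2 fold change -0.44, SE 0.11, edgeR adjusted p = 0.0357). Whether this call holds with 1 library left out was not examined. Of 14954 genes tested, 849 were higher and 577 lower in IRE1PKO, so 59.5% of calls were higher; with library totals as the only scaling the split was 1148 and 415, or 73.4%. Leaving out 1 library gave 398 to 868 higher and 255 to 616 lower, with the fewest without IRE1PKO 1 and also fewer by over 1.5 times without IRE1PKO 2, IRE1fl 2 or IRE1fl 3. Separate animals behind the libraries are not stated in the labels, and p-values therefore reflect variation among these 6 libraries, which could be technical. Hepatocyte markers were abundant in every library, and of the thyroid follicle markers Tg, Tshr and Nkx2-1 had no count in any.

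Among the 9 genes, thyroxine-binding globulin stood out: Serpina7 was 3.53-fold higher in IRE1PKO livers. Gpd2, the mitochondrial glycerol-3-phosphate dehydrogenase, was 1.37-fold higher. No gene among the 9 was called lower, and Ttr, Slc16a10, Dio1, Thra, Thrb, Klf9 and Hr did not pass. Calls rest on the quasi-likelihood test of edgeR, adjusted by Benjamini-Hochberg over all tested genes, at 0.05, and log2 fold changes are IRE1PKO over IRE1fl. Over all tested genes 9.54% were called, 5.68% higher and 3.86% lower. The groups did not overlap for 2 of the 9 genes, against 31.0% of all tested genes. The count of 0 lower was also 0 with the DESeq2 Wald test and with limma-voom, and 1 of the 9, Thrb, was lower at an unadjusted p under 0.05 in edgeR, as were 11.5% of all tested genes. The median log2 fold change of the 9 was 0.17, beside -0.0014 over all tested genes.

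**Figure D1:**
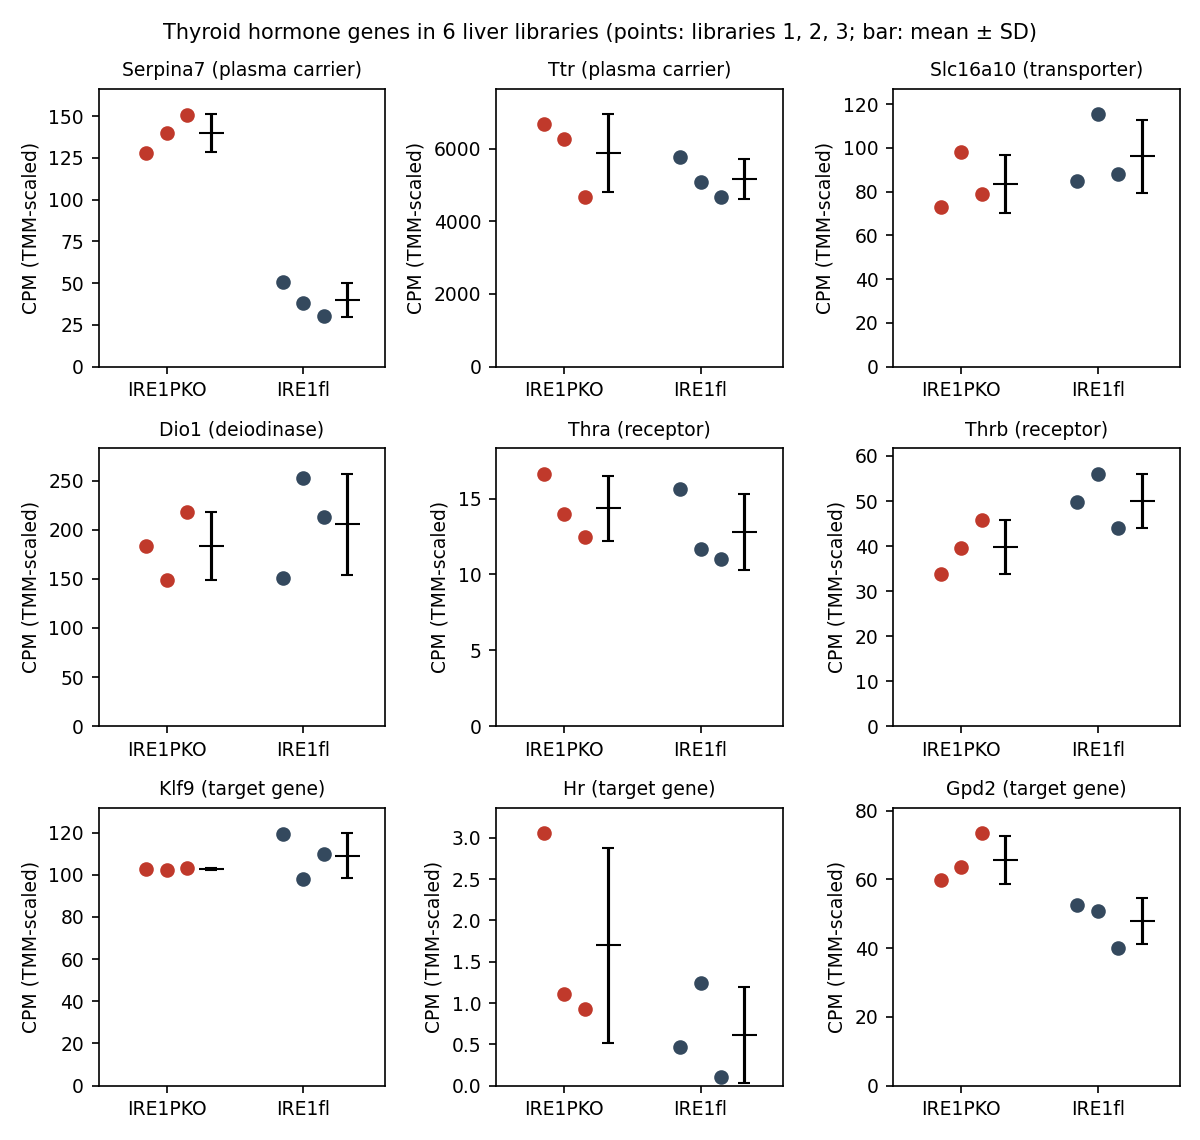
TMM-scaled CPM (vertical axes, from 0) of each gene in the 3 IRE1PKO and 3 IRE1fl liver libraries, with bars for the mean ± SD. The IRE1PKO libraries lie above all IRE1fl libraries for Serpina7 (128 to 151 against 30.2 to 50.4 CPM) and Gpd2 (59.9 to 73.4 against 40.1 to 52.5 CPM), and the groups overlap for the other genes.

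Of the plasma carriers, Serpina7 (chromosome X, 139079257 to 139085236, minus strand; GENCODE M21 on GRCm38, the same build as mm10) encodes a serpin without protease inhibition that binds T4. It had 128, 140.1 and 151 CPM in IRE1PKO libraries, against 50.4, 38.2 and 30.2 CPM in IRE1fl libraries. The lowest IRE1PKO library lay far above the highest IRE1fl library. The means were 139.7 ± 11.4 CPM in IRE1PKO and 39.6 ± 10.2 CPM in IRE1fl (SD, n = 3 each). The log2 fold change was 1.82 (SE 0.17; 95% interval of the fold 2.67 to 4.65), with an adjusted p of 0.000937 in edgeR. By p it ranked 75 among the 14954 genes tested, and by fold change 138 among the 849 called higher. It was called in each of 14 other settings, and with 1 library left out its log2 fold change ran from 1.66 to 2.03.

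Ttr (chromosome 18, 20665280 to 20674321) encodes transthyretin, which carries T4 and retinol-binding protein. It had 6688, 6278 and 4664 CPM in IRE1PKO libraries, against 5762, 5096 and 4659.9 CPM in IRE1fl libraries. IRE1PKO 1 and 2 were above all IRE1fl libraries, while IRE1PKO 3 was level with the lowest of them. Ttr differed by a log2 fold change of 0.18 (SE 0.15; fold 1.14, interval 0.905 to 1.43; edgeR adjusted p = 0.486). The interval leaves room for a rise of up to 1.43-fold and lies below that of Serpina7. The ratio of Serpina7 to Ttr, each as CPM per kb of exons, was 0.00928, 0.0108 and 0.0157 in IRE1PKO libraries, against 0.00424, 0.00363 and 0.00314 in IRE1fl libraries. All 3 IRE1PKO ratios were above all IRE1fl ratios, by 3.19-fold between geometric means. The two-sided exact permutation p was 0.1, the smallest that 3 libraries against 3 allow (0.2 adjusted over the 2 ratios computed, both chosen after values were seen). Alb, the third carrier, had 71779, 63227 and 57900.5 CPM in IRE1PKO libraries, against 62591, 56457 and 70461 CPM in IRE1fl libraries, and did not pass (log2 fold change 0.03, SE 0.14, edgeR adjusted p = 0.933).

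Hepatocytes make these carriers, and markers of liver cell types moved with genotype beside the rise of Serpina7. Of 10 hepatocyte markers 3 fell, the serum protein gene Ahsg, the urea cycle gene Cps1 and the serpin Serpina3k, and none rose by edgeR, DESeq2 or limma-voom, nor at an unadjusted p under 0.05. DESeq2 called 5 lower. For comparison with the counts of each cell type, edgeR called 5.68% of all tested genes higher and 3.86% lower. The edgeR call of Ahsg was lost without IRE1PKO 2, IRE1PKO 3 or IRE1fl 3 (adjusted p up to 0.0984), and that of Serpina3k without IRE1PKO 2, IRE1fl 2 or IRE1fl 3 and without the filter on low counts (adjusted p up to 0.101). The summed level of the 10 was 100257 to 120216 CPM in IRE1PKO libraries and 111437 to 133880 CPM in IRE1fl libraries. Of 9 stellate cell markers 7 rose, and their sum was 469.6 to 483 CPM in IRE1PKO against 242 to 305 CPM in IRE1fl. Of 8 sinusoidal endothelial markers 3 rose, with sums of 271 to 365 CPM in IRE1PKO and 233 to 255 CPM in IRE1fl. Among 10 macrophage markers 1 rose and 1 fell, with sums of 386 to 538 CPM in IRE1PKO and 314 to 439 CPM in IRE1fl. Of 4 tested cholangiocyte markers 1 fell, Sox9. The list summed to 5.94 to 8.99 CPM in IRE1PKO and 13.3 to 16.0 CPM in IRE1fl. Sox9 made up most of that sum, with a mean of 5.02 CPM in IRE1PKO and 12.2 CPM in IRE1fl. Krt19, Krt7 and Epcam did not pass (log2 fold change 0.37, -0.56 and -0.15). Of 6 lymphocyte markers none passed by any of the 3 tools or at an unadjusted p under 0.05, with sums of 2.39 to 4.04 CPM in IRE1PKO and 2.64 to 4.71 CPM in IRE1fl. No marker in these 6 lists was at 0 in all libraries. Their part in the results was not tested. In bulk RNA, fewer cells of a type and less RNA per cell cannot be told apart.

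The genes whose profile over the 6 libraries was most like that of Serpina7 were Tnfrsf19, a receptor of the TNF receptor superfamily, Pparg, a nuclear receptor of fat storage, and Col1a2, a chain of type I collagen. Likeness was the root mean square difference of log2 CPM centred on each gene's mean, among 11614 tested genes with a mean of 1 CPM or more, leaving out predicted gene models, pseudogenes and the 9 genes. It was 0.11 for Tnfrsf19, 0.14 for Pparg and 0.15 for Col1a2, beside a median of 0.96 over the genes compared. Tnfrsf19 had 15.6, 14.95 and 16.2 CPM in IRE1PKO libraries, against 6.48, 4.68 and 3.85 CPM in IRE1fl libraries. With only 6 libraries in 2 groups, many genes that differ by a like fold have a like profile.

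Slc16a10 (chromosome 10, 40033532 to 40142258) encodes a transporter of aromatic amino acids and thyroid hormones. It had 73.0, 98.4 and 78.9 CPM in IRE1PKO libraries, against 85.0, 115 and 88.1 CPM in IRE1fl libraries. The groups overlapped, with IRE1PKO 2 above IRE1fl 1 and 3. Slc16a10 differed by a log2 fold change of -0.20 (SE 0.14; fold 0.868, interval 0.694 to 1.09; edgeR adjusted p = 0.419). Of the other 11 listed transporters 10 were tested, of which 2 rose and 1 fell. Over all tested genes 5.68% were called higher and 3.86% lower. The median log2 fold change of the 10 transporters was 0.14.

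The transporters that passed were not members of the 9. Slco1a1, an organic anion transporter that carries T4 in rodents, fell to 62.3, 61.0 and 122 CPM in IRE1PKO libraries, against 249, 437 and 435 CPM in IRE1fl libraries (log2 fold change -2.19, SE 0.41, edgeR adjusted p = 0.0391). Its relative Slco1a4 had 56.5, 89.3 and 53.9 CPM in IRE1PKO libraries, against 38.4, 25.7 and 32.3 CPM in IRE1fl libraries, a rise of 1.05 on the log2 scale (SE 0.24, edgeR adjusted p = 0.0479). Slc17a4, shown to carry thyroid hormones in human cells, had 75.3, 58.3 and 70.3 CPM in IRE1PKO libraries, against 48.9, 38.4 and 34.1 CPM in IRE1fl libraries, a rise of 0.75 (SE 0.14, edgeR adjusted p = 0.0112). The groups did not overlap for these 3 genes. Each call was lost without at least 1 library, with edgeR adjusted p up to 0.125 for Slco1a1, 0.156 for Slco1a4 and 0.0527 for Slc17a4 when 1 library was left out. Slc17a4 lost it only without IRE1PKO 1. Slco1a1 lost it without IRE1PKO 1, IRE1PKO 2, IRE1fl 2 or IRE1fl 3, and Slco1a4 without IRE1PKO 1, IRE1PKO 3, IRE1fl 2 or IRE1fl 3; both also lost it without the filter on low counts.

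Dio1 (chromosome 4, 107291465 to 107307169), which both makes T3 and is itself induced by it, had 184, 149 and 218 CPM in IRE1PKO libraries, against 151, 253 and 213 CPM in IRE1fl libraries. The groups overlapped nearly throughout: IRE1PKO 2 and IRE1fl 1 were the low libraries and IRE1fl 2 the highest. The means were 184 ± 34.7 CPM in IRE1PKO and 206 ± 51.4 CPM in IRE1fl (SD, n = 3 each), and the log2 fold change was -0.16 (SE 0.21; fold 0.892, interval 0.635 to 1.25; edgeR adjusted p = 0.683). Its sign turned, to 0.01, without IRE1fl 2. Type 2 deiodinase, which activates the hormone in other tissues, had 2 counts for Dio2 in all, both in IRE1PKO 3. Dio3, which inactivates the hormone, had 8, 4 and 4 counts in IRE1PKO libraries and 14, 0 and 0 counts in IRE1fl libraries. A count of 0 allows up to 3 counts, or 0.0733 to 0.0851 CPM in these libraries, counting error only and with counts taken as independent. If both mates of a pair were counted, the limit would be higher.

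Among genes that build selenoproteins such as Dio1, Sephs2 alone passed, of 5 tested besides Dio1, and none rose by edgeR, DESeq2 or limma-voom, nor at an unadjusted p under 0.05. Over all tested genes edgeR called 5.68% higher and 3.86% lower. Sephs2 makes the selenium donor for selenocysteine. It fell to 873, 1022 and 891 CPM in IRE1PKO libraries, against 1235, 1266 and 1225 CPM in IRE1fl libraries, without overlap (log2 fold change -0.42, SE 0.10, edgeR adjusted p = 0.0277). The call was lost when library totals alone set the scale and without any 1 library other than IRE1PKO 2 (edgeR adjusted p up to 0.116).

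Thrb (chromosome 14, 17660261 to 18038090) encodes the main hepatic receptor. It had 33.9, 39.6 and 45.9 CPM in IRE1PKO libraries, against 49.8, 56.1 and 44.1 CPM in IRE1fl libraries. IRE1PKO 1 and 2 were below every IRE1fl library, and IRE1PKO 3 was above IRE1fl 3. The means were 39.8 ± 5.999 CPM in IRE1PKO and 49.98 ± 5.99 CPM in IRE1fl (SD, n = 3 each). The log2 fold change of -0.33 (SE 0.12; fold 0.796, unadjusted interval 0.658 to 0.963) had an unadjusted p of 0.0229 and an adjusted p of 0.126 in edgeR, so Thrb did not pass. It passed only without IRE1PKO 3 (edgeR adjusted p = 0.0491); over all other settings the adjusted p reached 0.356.

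Thra (chromosome 11, 98740638 to 98769006), which encodes the receptor predominant in heart and brain, had 16.6, 14.0 and 12.4 CPM in IRE1PKO libraries, against 15.6, 11.7 and 10.995 CPM in IRE1fl libraries. The groups overlapped, with IRE1fl 1 above IRE1PKO 2 and 3. Thra differed by a log2 fold change of 0.17 (SE 0.16; fold 1.12, interval 0.881 to 1.43; edgeR adjusted p = 0.561). Thra shares 263 exon bases, 5.7% of its exons, with the clock gene Nr1d1 on the opposite strand, and use of strand in the counting is not stated, so reads from the shared bases cannot be told apart. Nr1d1 had 107, 86.1 and 60.6 CPM in IRE1PKO libraries, against 115, 56.4 and 68.9 CPM in IRE1fl libraries. Both genes were highest in library 1 of each genotype. In IRE1fl, library 2 was below library 3 for Nr1d1 and above it for Thra. Whether reads of Nr1d1 entered the counts of Thra was not tested. Per kb of exons, Thrb stood at 1.27, 1.76 and 2.30 times Thra in IRE1PKO libraries, against 1.98, 2.99 and 2.50 times in IRE1fl libraries. These ratios overlapped (two-sided exact permutation p = 0.2, also 0.2 adjusted over 2 ratios, n = 3 each).

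Of 15 other receptor partners and coregulators tested, 2 fell by edgeR and by DESeq2, and 1 by limma-voom. None of the 15 rose by any of these tools, nor at an unadjusted p under 0.05 in edgeR. Over all tested genes edgeR called 5.68% higher and 3.86% lower. With Thra and Thrb included, 4 of 17 were lower at an unadjusted p under 0.05, Thrb among them, as were 11.5% of all tested genes. Their median log2 fold change was -0.0045. Med1, the Mediator subunit that binds hormone-loaded receptors, fell to 31.9, 33.5 and 31.4 CPM in IRE1PKO libraries, against 40.7, 40.7 and 41.6 CPM in IRE1fl libraries (log2 fold change -0.34, SE 0.08, edgeR adjusted p = 0.0231). The groups did not overlap for Med1. Its call was lost when library totals alone set the scale and without any 1 library other than IRE1fl 1, with edgeR adjusted p up to 0.0795. For the corepressor Ncor1 the log2 fold change was 0.02 (SE 0.08) and for the receptor partner Rxra -0.20 (SE 0.09), and neither passed (edgeR adjusted p = 0.932 and 0.208).

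**Figure D2:**
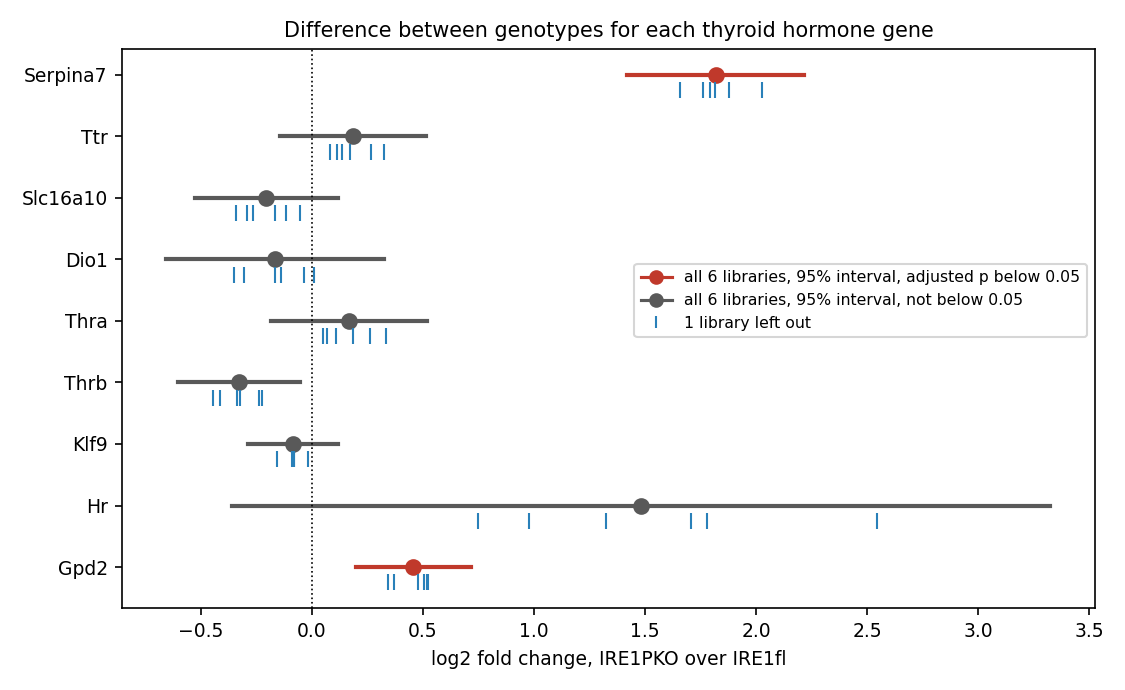
Log2 fold change (horizontal axis, IRE1PKO over IRE1fl) of each gene with its 95% interval from edgeR; blue ticks give the value with each of the 6 libraries left out. Serpina7 stays between 1.66 and 2.03 with 1 library left out, Gpd2 between 0.34 and 0.52, Thrb between -0.44 and -0.23, and Hr spreads from 0.75 to 2.55.

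The hormone-responsive genes did not move together. Gpd2 (chromosome 2, 57237635 to 57370719) encodes the mitochondrial enzyme of the glycerol phosphate shuttle, a classic hormone-induced gene of liver. It had 59.9, 63.7 and 73.4 CPM in IRE1PKO libraries, against 52.5, 51.0 and 40.1 CPM in IRE1fl libraries. The groups did not overlap, with IRE1PKO 1 and IRE1fl 1 nearest to each other. The means were 65.7 ± 6.99 CPM in IRE1PKO and 47.9 ± 6.75 CPM in IRE1fl (SD, n = 3 each), and the log2 fold change was 0.46 (SE 0.12; interval of the fold 1.15 to 1.64; edgeR adjusted p = 0.0343). The call was lost without any 1 library other than IRE1fl 1 (edgeR adjusted p up to 0.117). In GENCODE, 487 exon bases of Gpd2 (7.44%) are shared with A930012O16Rik on the opposite strand, a gene not analysed here.

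Klf9 (chromosome 19, 23141226 to 23168134) encodes a transcription factor induced by T3 and by glucocorticoids. It had 103, 102 and 103 CPM in IRE1PKO libraries, against 119, 97.8 and 109.9 CPM in IRE1fl libraries. The IRE1PKO libraries were nearly alike and fell inside the range of the IRE1fl libraries. The log2 fold change was -0.09 (SE 0.09; fold 0.943, edgeR adjusted p = 0.615), and its interval of 0.820 to 1.08 is the narrowest of the 9 and lies below the fold of Gpd2. Hr (chromosome 14, 70552212 to 70573548) encodes the corepressor Hairless, a T3-induced gene best known in brain and skin. It had 119, 41 and 38 counts in IRE1PKO libraries, against 17, 44 and 4 counts in IRE1fl libraries, or 3.06, 1.11 and 0.929 CPM against 0.471, 1.25 and 0.108 CPM. IRE1PKO 1 was high and IRE1fl 3 low, and IRE1fl 2 was above IRE1PKO 2 and 3. The log2 fold change of 1.48 (SE 0.79) did not pass (edgeR adjusted p = 0.297). Its interval of the fold, 0.779 to 10.03, was the widest of the 9. Without IRE1PKO 1 the log2 fold change of Hr was 0.75, and without IRE1fl 2 it was 2.55.

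Beyond the 9, 21 further genes known to be induced by thyroid hormone in liver were tested, of which 6 rose and 3 fell. Over all tested genes 5.68% were called higher and 3.86% lower. The median log2 fold change of the 21 genes was 0.18, beside -0.0014 over all tested genes. Many are also controlled by insulin, SREBP, ChREBP, PPARalpha or glucocorticoids, and the list was written with earlier results of these data known. Those that rose included Pdk4, Fgf21, Me1, Fasn and Acaca, of which Fgf21 is named after its value was seen. Those that fell, also named after their values were seen, were the gluconeogenic genes G6pc (log2 fold change -0.90, SE 0.17) and Pck1 (-0.60, SE 0.14) and the HDL receptor gene Scarb1 (-0.32, SE 0.09). The fall of Scarb1 was lost without any 1 library and with library totals as the only scaling, that of Pck1 without IRE1PKO 1, IRE1PKO 2 or IRE1fl 2, and that of G6pc without IRE1PKO 2.

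Me1, the malic enzyme that supplies NADPH for fat synthesis, had 486, 376 and 423 CPM in IRE1PKO libraries, against 110.5, 164 and 63.9 CPM in IRE1fl libraries. The groups lay far apart, and the log2 fold change was 1.92 (SE 0.37, edgeR adjusted p = 0.0389), a call lost without any 1 IRE1PKO library, without IRE1fl 1 and without the filter on low counts. Thrsp, the lipogenic Spot 14 gene, had 649.6, 755 and 920.4 CPM in IRE1PKO libraries, against 381, 768 and 501 CPM in IRE1fl libraries. IRE1fl 2 overlapped the IRE1PKO range, and Thrsp did not pass (log2 fold change 0.49, SE 0.27, edgeR adjusted p = 0.318). Without IRE1fl 2 it passed, with a log2 fold change of 0.81 (edgeR adjusted p = 0.0265). Pdk4, which restrains pyruvate oxidation, had 28.1, 18.4 and 20.0 CPM in IRE1PKO libraries, against 3.93, 3.21 and 3.07 CPM in IRE1fl libraries. The groups did not overlap, and the log2 fold change was 2.70 (SE 0.19, edgeR adjusted p = 3.33e-05).

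**Figure D3:**
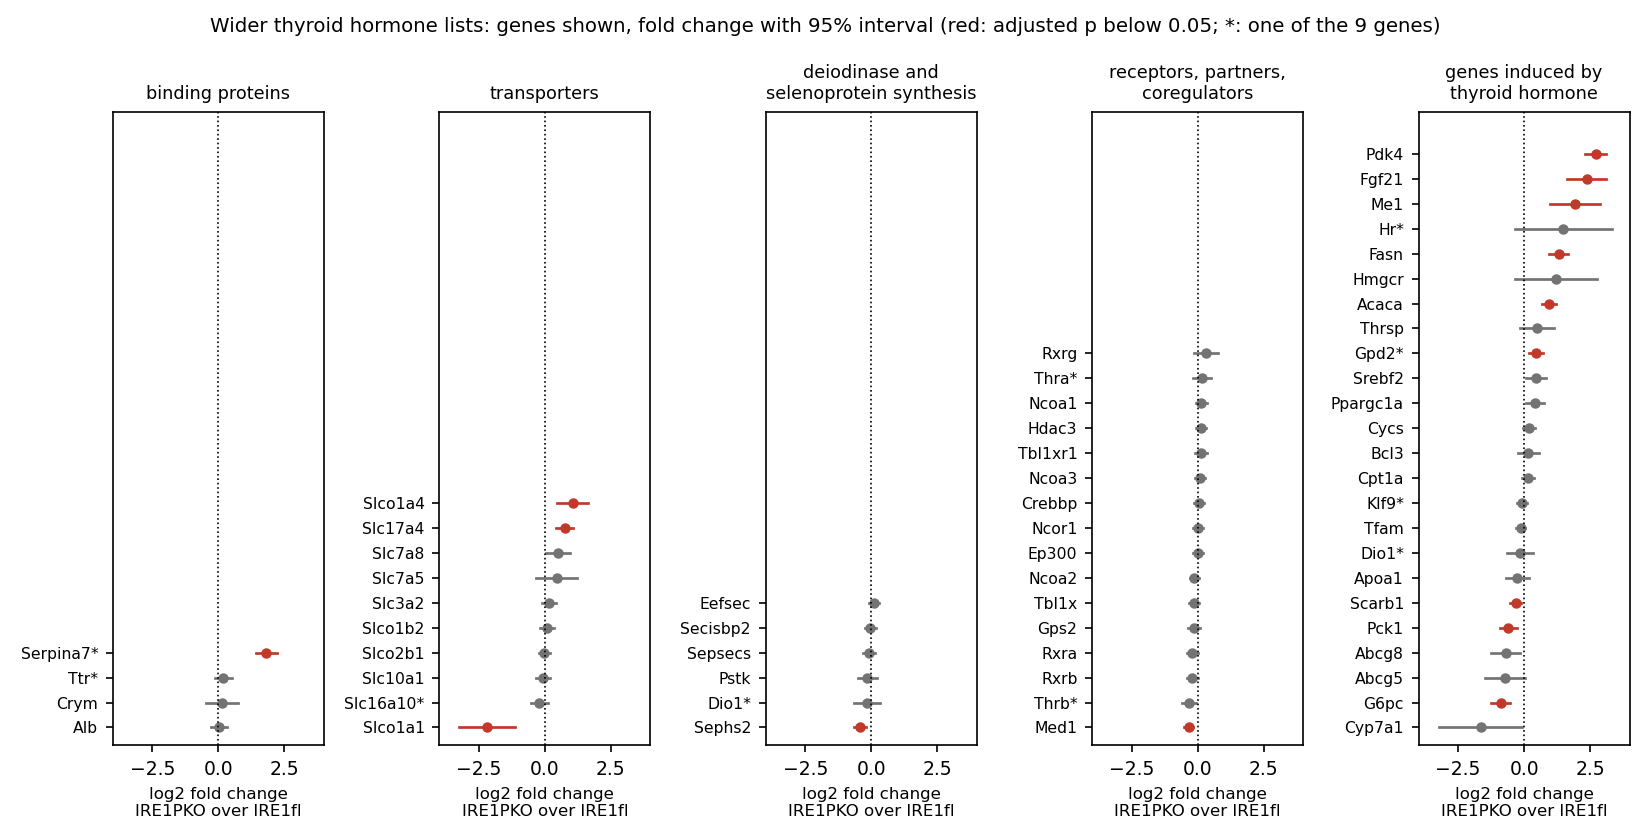
Log2 fold change (horizontal axes, IRE1PKO over IRE1fl) with 95% intervals of genes from 5 lists; red marks an edgeR adjusted p below 0.05 and an asterisk the 9 genes. Receptors and coregulators lie close to 0, between -0.34 and 0.32, while hormone-induced genes spread from -1.65 to 2.70.

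Levels can be compared between genes only per length, here as CPM per kb of the union of exons in GENCODE M21, which may differ from the annotation used for counting. In IRE1PKO livers the order was Ttr, Dio1, Serpina7, Klf9, Slc16a10, Gpd2, Thrb, Thra and Hr, and only the neighbours Slc16a10 and Gpd2 had overlapping libraries. In IRE1fl livers Klf9 came before Serpina7 and the rest of the order was the same. There the libraries overlapped between Klf9 and Serpina7, between Serpina7 and Slc16a10, and between Gpd2 and Thrb. Serpina7 stood at 57.1 ± 4.65 CPM per kb in IRE1PKO and 16.2 ± 4.16 CPM per kb in IRE1fl (SD, n = 3 each). Ttr stood at 4955 ± 903 CPM per kb in IRE1PKO and 4361 ± 468 CPM per kb in IRE1fl, so the message for thyroxine-binding globulin was a small share of that for transthyretin in both genotypes. Dio1 stood at 93.1 ± 17.6 CPM per kb in IRE1PKO and 104 ± 26.1 CPM per kb in IRE1fl. Hr was lowest, at 0.246 ± 0.170 CPM per kb in IRE1PKO and 0.0880 ± 0.0842 CPM per kb in IRE1fl.

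**Figure D4:**
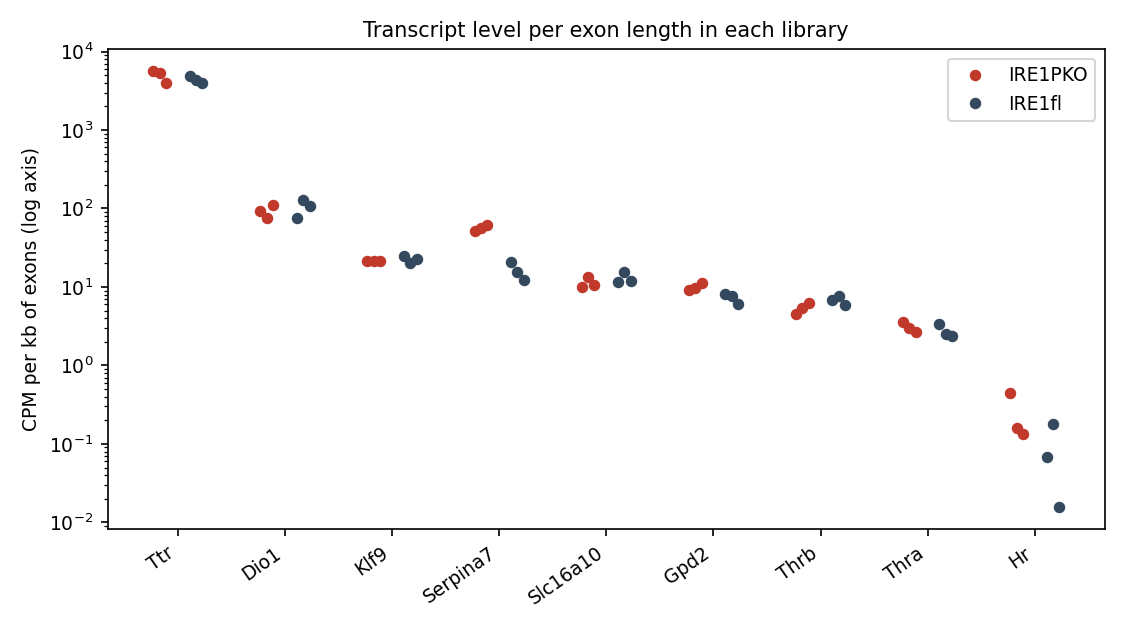
CPM per kb of exons (vertical log axis) of each gene in the 3 IRE1PKO and the 3 IRE1fl libraries, ordered by the IRE1fl mean. Ttr lies near 4955 CPM per kb in IRE1PKO and 4361 in IRE1fl, Hr near 0.246 and 0.0880, and Serpina7 and Klf9 change places: Serpina7 lies above Klf9 in IRE1PKO, and its mean lies below that of Klf9 in IRE1fl, where their libraries overlap.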

How the data were processed

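Poly(A) RNA of mouse liver was sequenced in 3 IRE1PKO and 3 IRE1fl libraries. A single table was deposited, holding unnormalized counts for 35976 gene symbols in 6 columns of 1 library each. Per the submitters' processing notes the build was mm10. No aligner, counter, strand setting or annotation is stated (not given in the sources used here). Low even counts outnumbered odd ones, so both mates of a pair may have been counted, and counts were halved as an alternative.

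Columns were matched to samples by genotype and number. Counts were filtered with filterByExpr, scaled by TMM and compared in edgeR 4.0.16 under R 4.3.3 (robust quasi-likelihood test, group as the only term, two-sided) with Benjamini-Hochberg adjustment over 14954 genes and a threshold of 0.05. CPM are counts relative to TMM-scaled totals; log2 profiles used a prior count of 2. The SE is the log2 fold change divided by the root of F, and 95% intervals use it with edgeR's degrees of freedom, unadjusted. The table's 27 date-like names (0.178% of counts) stayed in the totals. Steps were tested on simulated data.

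Named genes are the 9, up to 4 called genes with the smallest p from each of 5 wider lists, some given in advance (among them Alb, Dio2, Dio3, Rxra, Ncor1, Thrsp and Me1), and the 3 genes most like the one with the smallest p; the few others are said to be chosen after their values. Some named genes are not reported here. Members and lists were chosen with earlier results of these data known. Positions and exon lengths come from GENCODE M21, sequences from RefSeq. The alternatives were another test (the Wald test of DESeq2 1.42.0, or voom in limma 3.58.1), another scaling (DESeq2 size factors or library totals), another filter (none, or a mean of 1 CPM), halved counts, a replicate block, and leaving out each library.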

Additional observations from a re-analysis of the deposited data

How the results depend on the processing

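Serpina7 was called higher in all 14 other settings run. The count of the 9 genes called higher, 2 in the reported analysis, was 1 to 2 with each library left out, and the count called lower, 0 in the reported analysis, was 0 to 1. With the replicate number as a block 1 was called higher: Gpd2 had an adjusted p of 0.0664 in edgeR. Of the other called genes named, Slco1a4, Me1 and G6pc also lost their calls with the block (edgeR adjusted p = 0.204, 0.102 and 0.0690). Deviations of same-numbered libraries correlated at 0.07, -0.02 and 0.10, and not every library correlated best with its own number, so the numbers were not taken to pair the libraries. The block gave 1051 higher and 814 lower genes over the whole table. The DESeq2 Wald test gave 890 lower genes, and leaving out 1 library gave 398 to 868 higher and 255 to 616 lower. Of the 53 tested genes in the wider lists besides the 9, 8 were higher and 7 lower. Over all tested genes 5.68% were higher and 3.86% lower. For the 53 genes, leaving out 1 library gave 5 to 9 higher and 1 to 6 lower. Of them, 3 were lower when library totals alone set the scale. The causes were not tested. With each library left out, the log2 fold change of Dio1 ran from -0.35 to 0.00996, that of Alb from -0.06035 to 0.11 and that of Ncor1 from -0.0157 to 0.0573, changing sign without passing. Hr had the fewest counts of the 9 genes, with 4 to 119 per library.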
